A study of Mus musculus with 9 samples.

Results

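The 41 genes described here build the contractile lattice of the skeletal muscle fibre and the membrane system that switches it on. They were taken by symbol from a table of 55335 genes, and all 41 were found and passed the filter on low counts that left 18259 genes for testing. The structural class holds 28 of them, with 7 genes of the thin filament, 6 of the thick filament, 4 of titin and the M-band and 11 of the Z-disc. The calcium handling class holds 12, with 8 genes of the triad and 4 of the calcium store and its buffer, and the muscle creatine kinase gene Ckm stands in neither class.

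RNA came from the leg muscles of 9 wild-type mice (genotype WT, strain c57b6l as the labels spell it), 1 library for each mouse. Every mouse, controls included, had been put through the hindlimb model that the labels call suspension ischemia, so no group was uninjured. The control group (3 mice) was left untreated, the aspirin group (3 mice) received aspirin, a cyclooxygenase inhibitor, and the hydrogel group (3 mice) received a peptide hydrogel together with aspirin. The comparison of hydrogel with aspirin therefore differs by the hydrogel, while hydrogel against control differs by both agents. The sources used here do not give which leg muscle was taken, nor sex, age, dose or time after injury. Uninjured muscle and hydrogel without aspirin were not analysed here. The labels also carry a sample code of unstated meaning whose first number is not shared between groups. A batch marked by that first number and the treatment therefore cannot be told apart. The second number of the code is shared between some libraries of different groups, such as Aspirin replicate 1 and Hydrogel replicate 1. Whether values follow the second number was not tested. Within the control group and within the hydrogel group, all libraries carry the same first number. In the aspirin group, the first number of Aspirin replicate 3 differs from that of the other aspirin libraries. Whether differences within the aspirin group follow this code was not tested.

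A sarcomere is the repeating unit between neighbouring Z-discs, in which thick filaments of myosin pull on thin filaments of actin. Titin spans the unit from the Z-disc to the M-band and keeps the thick filament centred. Contraction starts when a voltage sensor in the transverse tubule opens the ryanodine receptor of the sarcoplasmic reticulum at a junction called the triad, and ends when a calcium pump refills that store. Fast and slow fibres often use different members of the same gene family for these parts.

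Before the values, the DNA upstream of the 5 members whose aspirin libraries all lay below all controls is shown, because these are the members that stood apart in that comparison. Each run is the 250 bases before a RefSeq start on GRCm38.p6, 5′ to 3′ on the strand of the gene. Capitals mark matches to the E-box (CANNTG, the site type of the myogenic bHLH factors) and to the MEF2 site, an A/T-rich site named after its factor, on either strand. The windows lie at chr3:108364661-108364910, plus strand (Mybphl), chr10:88605153-88605402, minus strand (Mybpc1), chr4:135759465-135759714, plus strand (Myom3), chr13:12340733-12340982, minus strand (Actn2) and chr6:24597521-24597770, plus strand (Lmod2).
Mybphl: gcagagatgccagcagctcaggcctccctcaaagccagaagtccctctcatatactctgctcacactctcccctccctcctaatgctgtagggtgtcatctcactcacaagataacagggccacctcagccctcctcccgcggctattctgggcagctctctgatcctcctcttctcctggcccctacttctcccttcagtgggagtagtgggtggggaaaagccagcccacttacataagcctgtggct
Mybpc1: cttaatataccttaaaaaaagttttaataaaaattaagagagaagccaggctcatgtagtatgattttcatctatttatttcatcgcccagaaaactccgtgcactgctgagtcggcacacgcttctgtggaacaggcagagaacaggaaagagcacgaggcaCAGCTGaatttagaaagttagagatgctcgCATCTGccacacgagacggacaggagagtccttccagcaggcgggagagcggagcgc
Myom3: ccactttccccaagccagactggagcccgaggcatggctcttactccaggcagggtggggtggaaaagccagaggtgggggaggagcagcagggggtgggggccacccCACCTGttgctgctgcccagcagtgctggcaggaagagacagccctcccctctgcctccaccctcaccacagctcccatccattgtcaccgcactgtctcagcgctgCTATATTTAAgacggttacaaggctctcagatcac
Actn2: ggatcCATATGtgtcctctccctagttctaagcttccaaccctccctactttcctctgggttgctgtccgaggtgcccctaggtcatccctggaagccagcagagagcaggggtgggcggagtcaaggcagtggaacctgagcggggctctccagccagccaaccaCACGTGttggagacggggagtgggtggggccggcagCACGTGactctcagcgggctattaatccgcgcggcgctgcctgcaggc
Lmod2: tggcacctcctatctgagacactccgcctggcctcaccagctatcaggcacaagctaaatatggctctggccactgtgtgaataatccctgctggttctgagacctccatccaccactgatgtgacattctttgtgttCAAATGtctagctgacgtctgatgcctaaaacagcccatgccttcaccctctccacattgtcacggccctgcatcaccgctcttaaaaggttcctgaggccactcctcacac
The Mybpc1 window holds 2 E-boxes, the Actn2 window 3, and the Myom3 and Lmod2 windows 1 each, while these letters were not in the Mybphl window. The Myom3 window also holds a MEF2 match from 35 to 26 bases before the start, whose letters include TATA.

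RefSeq windows were matched for 27 of the 41 members (33 windows, since some genes have more than 1 start) and compared with all 32851 windows of the same length in the table. A MEF2 match lay in 15.2% of the members' windows and in 2.92% of all windows. It was found for 5 members, and the matched letters differ between them. In 2 of these, Myom3 and Myoz2 (from 33 to 24 bases before the RefSeq start), the letters include TATA. A MEF2 match and a TATA box cannot be told apart there. The GENCODE 5′ end of Myoz2 (chr3:123035015, minus strand) lies inside its window, so the Myoz2 distance holds for the RefSeq start only.
Myom3: CTATATTTAA
Myoz2: CTATATATAG
Pvalb: TTATTAATAG
Ttn: CTAAATTTAG
Xirp2: CTAAAAATAG
A CArG box, the site type of serum response factor, lay in 12.1% of the members' windows (Acta1, Ldb3 and Myom1) and in 1.47% of all windows. The windows of Ldb3 overlap and hold the same CArG box, so it is counted more than once, and 3 of 27 members had one. The E-box is common, with 75.8% of the members' windows and 66.2% of all windows. It was found for 23 of 27 members, and the overlapping windows of Jph2 hold the same one. These are matches of letters in a window, and binding was not measured.

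Total counts per library ran from 32197791 to 48170537. Levels are given as CPM, counts scaled to a common library size after TMM scaling, a method meant to offset differences in RNA composition. Levels of different genes are compared only in the deposited FPKM, which divides by gene length. The label of muscle tissue was checked against fibre genes outside the member list. The intermediate filament gene Des ran from 673 to 4697 CPM over the 9 libraries, the fast myosin gene Myh4 from 2692 to 122425, and the caveolin gene Cav3 from 17.1 to 78.5. All 3 were lowest in Aspirin replicate 1.

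The members held a large share of all counts, and 1 library stood apart in that share. It was 13.1, 15.9 and 20.6% in the controls, 4.8, 16.2 and 20.7% in the aspirin libraries and 16.8, 18.9 and 21.3% in the hydrogel libraries. Aspirin replicate 1 lay far below the other 8 libraries, and the groups overlapped otherwise. In CPM it was the lowest of the 9 libraries for 35 of the 41 members. Hydrogel replicate 3 was the highest in CPM for 25 and the lowest for 5. That ranking depends on the scaling, since the TMM factor was 0.69 in Hydrogel replicate 3 and 0.87 to 1.63 in the others. In deposited FPKM, Neb and Atp2a1 were still highest in Hydrogel replicate 3. Acta1 was highest in Control replicate 3 there, and Ttn and Myom2 in Aspirin replicate 3. Aspirin replicate 1 and Hydrogel replicate 3 marked the ends of the first principal component of 14572 genes, at -152 and 101. In whole muscle, fewer fibres in the sample and less of these RNAs per fibre cannot be told apart.

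**Figure D1:**
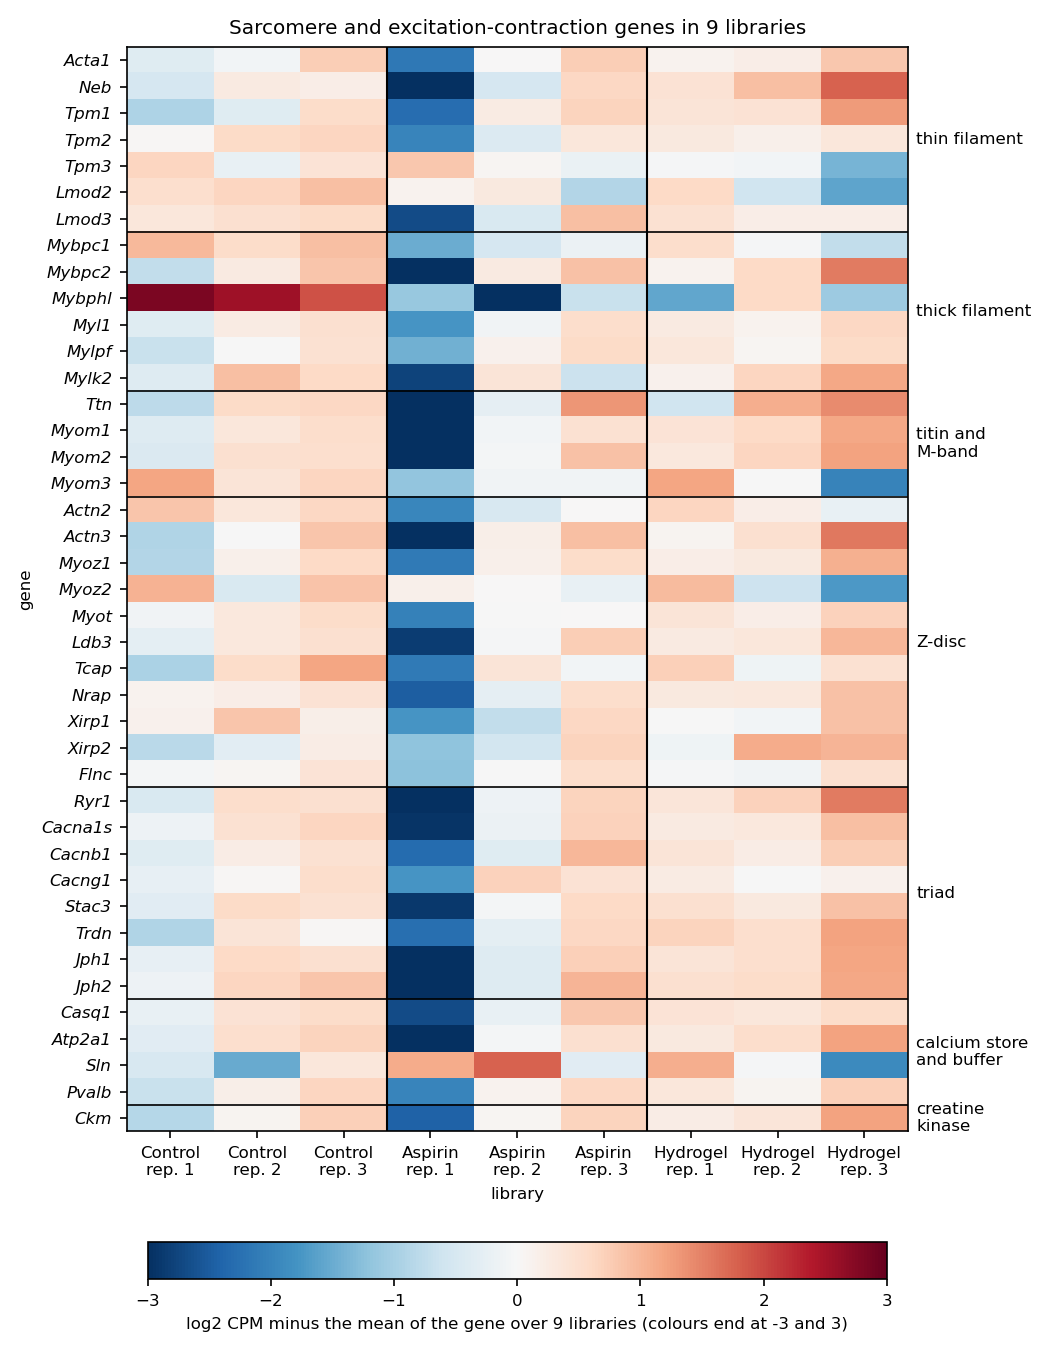
Level of each of the 41 members (rows, grouped by role) in each of the 9 libraries (columns), as log2 CPM minus the mean of the gene over the 9 libraries, with colours ending at -3 and 3. The column of Aspirin replicate 1 is the lowest for 35 of 41 members, and the row of Mybphl is high in the 3 controls.

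By length-corrected level the members span a wide range. The skeletal actin gene Acta1 had the highest median over the 9 libraries (15642 FPKM), followed by the light chain gene Mylpf (9693), the calcium buffer gene Pvalb (7834) and the calcium pump gene Atp2a1 (6748). At the other end stood Myoz2 (12.1), Myom3 (10.4) and Mybphl (0.243). The spread over the 9 libraries was smallest for the filamin gene Flnc (SD of log2 CPM 0.53) and largest for Mybphl (1.95) and the junctophilin gene Jph2 (1.64). Without Aspirin replicate 1 the Jph2 value was 0.55, and the largest were those of Mybphl (2.04), Sln (1.23) and Myom3 (1.01). The SD had a median of 0.96 in the structural class and of 1.16 in the calcium handling class, and this order turned without Aspirin replicate 1, at 0.58 and 0.47.

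Aspirin was first compared with control, which asks how the contractile programme differed in injured muscle given the anti-inflammatory agent alone. The log2 fold changes of 38 of the 41 members lay below 0 with a median of -0.41, against 8402.00 of 18259 genes and a median of 0.046 over all genes tested. At an adjusted p under 0.05, edgeR's quasi-likelihood test called 0 members and 0% of all genes. An unadjusted p under 0.05 was reached by 3 of 41 members (7.32%), beside a background of 6.48% of all genes. Groups did not overlap, with aspirin lower, for 5 of 41 members (12.2%: Lmod2, Mybpc1, Mybphl, Myom3 and Actn2), beside 5.44% of all genes. For 0 members was aspirin higher without overlap, beside 5.54% of all genes. DESeq2 called 1 member (Mybphl) among 101 genes, and limma-voom called 0 of each. The median of the members rested on Aspirin replicate 1, since without it the median was 0.057 with 23 of 41 above 0, and without Aspirin replicate 3 it was -1.05. Leaving out Control replicate 3 gave -0.26, limma-voom -0.89, and scaling the libraries to other sarcomere genes -0.16. That scaling uses the summed counts of a gene list, so its most abundant genes weigh most. The sum ran from 13634 CPM in Aspirin replicate 1 to 203782 in Hydrogel replicate 3, and the myosin gene Myh4 from 2692 to 122425 in the same libraries. For 25 of 41 members the sign of the fold change in aspirin against control turned in at least 1 of the alternative fits.

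Hydrogel was then compared with control, which bears on both agents together. Here 28 of 41 members lay above 0 with a median log2 fold change of 0.26, beside -0.03 over all genes, and the sign turned to a median of -0.22 when libraries were scaled to other sarcomere genes. edgeR called 0 members among 0% of all genes. An unadjusted p under 0.05 was reached by 1 member, Mybphl (2.44% of 41, beside 3.92% of all genes). Hydrogel lay higher without overlap for Neb and Trdn (4.88%, beside 6.85% of all genes) and lower for Mybpc1 and Mybphl (4.88%, beside 6.3%). DESeq2 called 18 genes and 0 members, and limma-voom 0 of each. Leaving out Control replicate 1 gave a median of 0.02, and leaving out Hydrogel replicate 3 gave 0.049. It was 0.47 when Control replicate 3 was left out and 0.045 with library size alone as the scaling. The sign turned in at least 1 alternative for 20 of 41 members.

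The comparison of hydrogel with aspirin asks what the peptide hydrogel added. The log2 fold changes of 37 of 41 members lay above 0 with a median of 0.68, beside -0.053 over all genes. Scaling to the summed counts of other sarcomere genes turned the members' median to -0.23, beside -2.02 over all genes. edgeR called 0 members among 0% of all genes, and 0 of 41 reached an unadjusted p under 0.05, beside 10.9% of all genes. Only the Z-disc gene Myot was higher without overlap (2.44% of members, beside 7.46% of all genes), and 0 members were lower without overlap, beside 8.75%. DESeq2 called 157 genes and 0 members, and limma-voom 0 of each. Without Aspirin replicate 1 the median was 0.27, and leaving out Aspirin replicate 3 gave 1.39. Without both Aspirin replicate 1 and Hydrogel replicate 3, a choice made after seeing the data, the median was 0.0049 with 22 of 41 above 0. The sign turned in at least 1 alternative for 30 of 41 members. The 3 comparisons share libraries, so their values are given side by side and are not independent of each other.

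**Figure D2:**
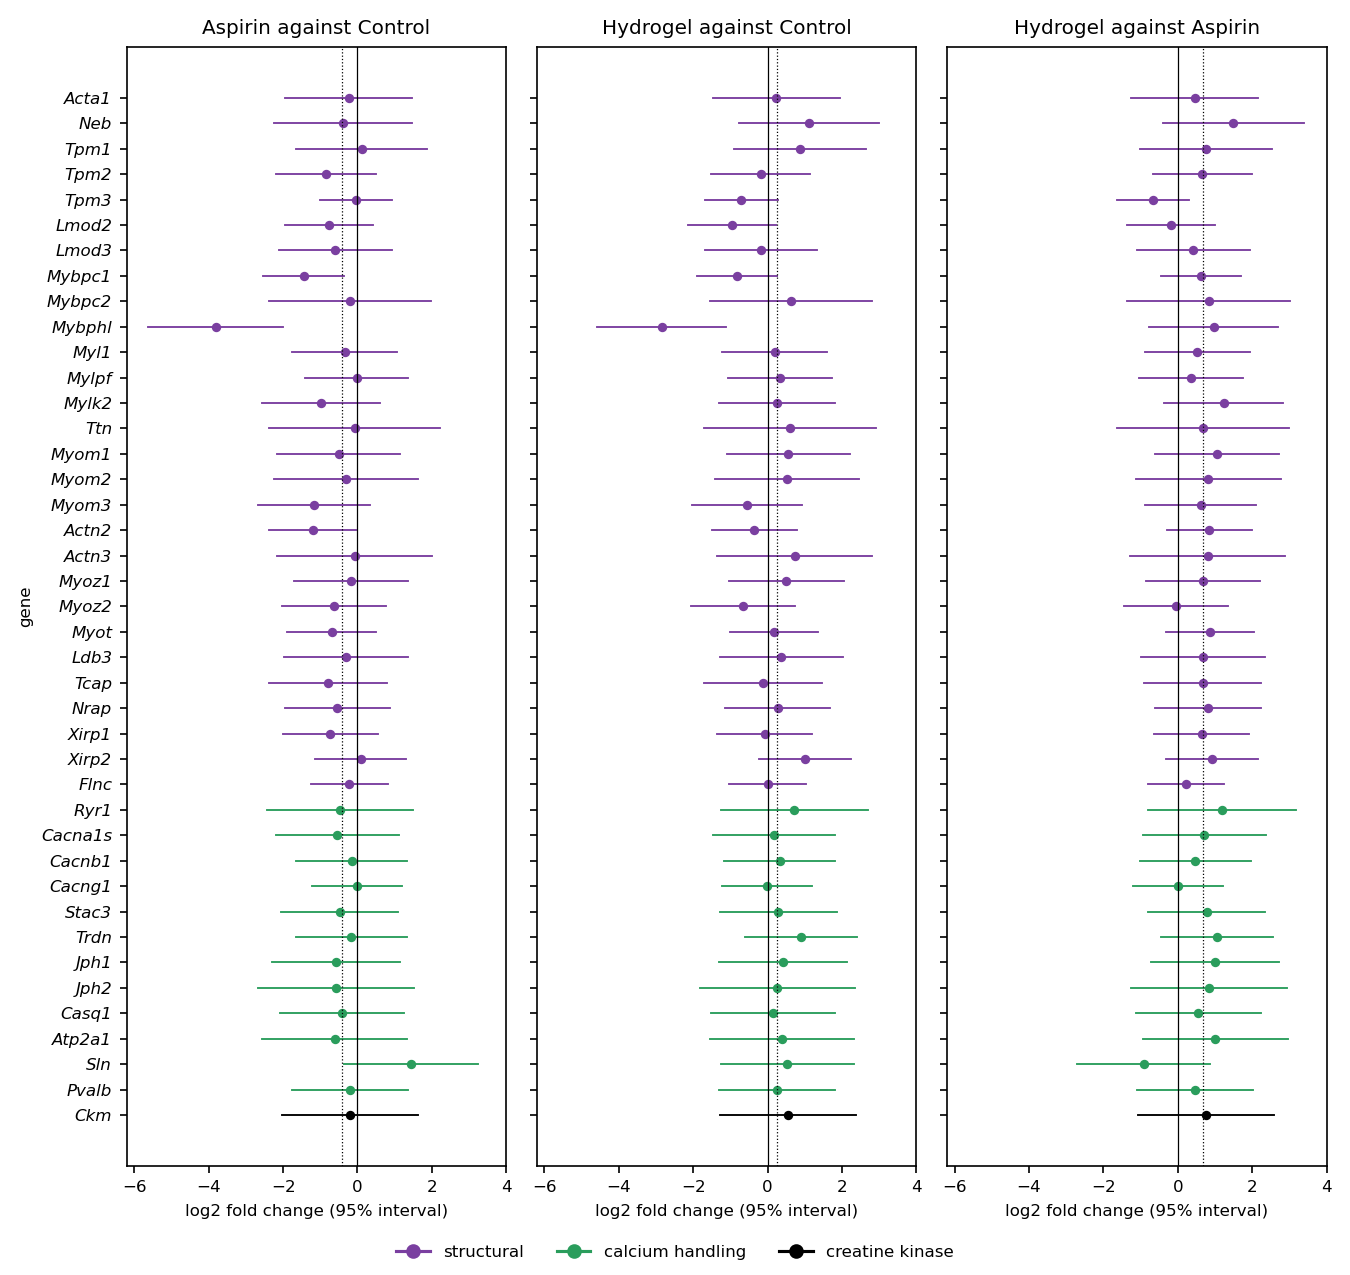
edgeR log2 fold change (points) with its 95% interval (lines) for each of the 41 members in the 3 comparisons, 3 libraries a group, with dotted lines at the members' median. The medians sit at -0.41, 0.26 and 0.68, and Mybphl lies farthest to the left in the first and second panels.

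The thin filament members are actin (Acta1), the ruler protein nebulin (Neb), 3 tropomyosins that gate the actin surface (Tpm1, Tpm2, Tpm3) and 2 leiomodins that start actin filaments (Lmod2, Lmod3). Neb (chr2:52136647-52378474, minus strand) had 2885, 4868 and 4674 CPM in the controls, 449.7, 2853 and 6231 in the aspirin libraries and 5476, 7571 and 13731 in the hydrogel libraries. All hydrogel libraries lay above all controls, while the aspirin libraries overlapped with both groups. Its log2 fold change was 1.11 ± 0.83 (SE) in hydrogel against control (edgeR adjusted p = 0.987), 1.49 ± 0.84 in hydrogel against aspirin (adjusted p = 0.494) and -0.38 ± 0.82 in aspirin against control.

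Lmod2 (chr6:24597762-24605414, plus strand) had 182, 200.3 and 238 CPM in the controls, 136, 156 and 69.6 in the aspirin libraries and 192, 84 and 42.9 in the hydrogel libraries. Every aspirin library lay below every control, and Hydrogel replicate 1 stayed within the range of the controls. Against control its log2 fold change was -0.77 ± 0.52 with aspirin (edgeR adjusted p = 0.777) and -0.96 ± 0.52 with hydrogel (adjusted p = 0.987). Between hydrogel and aspirin it was -0.19 ± 0.52, and it lay above 0 without Aspirin replicate 2 (0.055) and without Hydrogel replicate 3 (0.16). The other leiomodin gene, Lmod3, ranged from 21.1 to 253 CPM, both ends being aspirin libraries.

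Tpm3 (chr3:90072649-90100902, plus strand) encodes the tropomyosin of slow fibres among its products, and a count per gene does not separate these. It had 162, 88.9 and 137 CPM in the controls, 180.2, 108 and 89.6 in the aspirin libraries and 101, 97.3 and 39.1 in the hydrogel libraries. Of the 9 libraries, Aspirin replicate 1 had the most and Hydrogel replicate 3 the least. Its log2 fold change was -0.71 ± 0.43 in hydrogel against control (edgeR adjusted p = 0.987), -0.67 ± 0.43 against aspirin (adjusted p = 0.528, and 0.0049 without Aspirin replicate 1 and Hydrogel replicate 3), and -0.036 ± 0.43 in aspirin against control. Tpm1, the fast-fibre tropomyosin, had 6707, 9910.0 and 18442 in controls, 2601, 14993 and 20226 with aspirin and 16546, 17079 and 30457 with hydrogel in CPM, with Aspirin replicate 1 lowest and Hydrogel replicate 3 highest. Acta1 and Tpm2 had log2 fold changes from -0.85 (Tpm2 in aspirin against control) to 0.66 (Tpm2 in hydrogel against aspirin), with overlapping groups throughout.

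The thick filament members are 2 myosin-binding proteins C that stabilise and regulate the myosin heads (Mybpc1 in slow, Mybpc2 in fast fibres), the related Mybphl, 2 myosin light chains (Myl1, Mylpf) and the light chain kinase Mylk2. Mybphl, known mainly from the heart atria, had the lowest level of the members and the largest fold differences against control. The gene (chr3:108364911-108380057, plus strand) had 193, 130 and 65 counts in the controls, 12, 2 and 11 in the aspirin libraries and 7, 25 and 7 in the hydrogel libraries. In CPM these are 3.57, 2.9 and 1.89 in controls, 0.229, 0.0469 and 0.314 with aspirin and 0.169, 0.756 and 0.234 with hydrogel. All 6 libraries of mice given aspirin lay below all 3 controls, and 1 of them held fewer than the 3 counts taken here as the floor of a library (0.055 to 0.10 CPM, counting error only).

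The Mybphl mean was 2.79 ± 0.844 CPM (SD, n = 3) in controls, 0.197 ± 0.137 in aspirin and 0.386 ± 0.322 in hydrogel libraries. The log2 fold change was -3.81 ± 0.80 in aspirin against control, a 14.1-fold lower level (unadjusted p = 0.00106, adjusted p = 0.747 in edgeR). DESeq2 gave this difference an adjusted p of 0.000835 and limma-voom one of 0.676. In hydrogel against control the value was -2.85 ± 0.77, a 7.20-fold lower level (adjusted p = 0.987 in edgeR and 0.0927 in DESeq2). Aspirin and hydrogel libraries overlapped (0.97 ± 0.76, edgeR adjusted p = 0.588). Leaving out any 1 library kept the first value between -4.25 and -3.36 and the second between -3.78 and -2.48, and scaling to other sarcomere genes gave -2.46 and -3.41. An antisense gene, Gm12522, shares 89 exonic bases with Mybphl and averaged 0.0701 CPM.

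Mybpc1 (chr10:88518279-88605152, minus strand) had 2499.7, 1855 and 2395 CPM in the controls, 457, 895 and 1121 in the aspirin libraries and 1822, 1241 and 759 in the hydrogel libraries. As with Mybphl, all aspirin and all hydrogel libraries lay below all controls. Its means were 2249.8 ± 346 CPM (SD, n = 3) in controls, 824 ± 338 with aspirin and 1274 ± 533 with hydrogel. The log2 fold change was -1.45 ± 0.49 in aspirin against control (unadjusted p = 0.0154, edgeR adjusted p = 0.753, DESeq2 adjusted p = 0.0691) and -0.82 ± 0.48 in hydrogel against control (edgeR adjusted p = 0.987). Neither comparison of Mybpc1 passed the threshold in any of the tests run.

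The fast-fibre partner Mybpc2 (chr7:44501699-44524656, minus strand) had 2849, 5713 and 8447 CPM in the controls, 346, 5716 and 8682 in the aspirin libraries and 5092, 7207 and 13916 in the hydrogel libraries. Its groups overlapped in all 3 comparisons, with log2 fold changes of -0.21 ± 0.96, 0.62 ± 0.96 and 0.83 ± 0.97. The light chain kinase gene Mylk2 (chr2:152911352-152923068, plus strand) had 226, 552 and 446 in controls, 43.6, 387 and 190.3 with aspirin and 322, 466 and 667 with hydrogel in CPM, which gave 1.23 ± 0.70 in hydrogel against aspirin (edgeR adjusted p = 0.499) with overlapping groups. Myl1 and Mylpf had overlapping groups and log2 fold changes between -0.34 and 0.53 in the 3 comparisons.

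Titin (Ttn) and the myomesins that link thick filaments at the M-band (Myom1, Myom2, Myom3) form the next role. Myom3 (chr4:135759715-135815564, plus strand) had 157, 89.7 and 108 CPM in the controls, 30.5, 63.5 and 63.8 in the aspirin libraries and 155, 68.5 and 17.3 in the hydrogel libraries. All aspirin libraries lay below all controls, while the hydrogel libraries ran from near the top of the control range to below every other library. The log2 fold change was -1.17 ± 0.66 in aspirin against control (edgeR adjusted p = 0.764) and -0.55 ± 0.66 in hydrogel against control (adjusted p = 0.987).

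In CPM, Ttn, Myom1 and Myom2 were lowest in Aspirin replicate 1 and highest in Hydrogel replicate 3. In deposited FPKM, Ttn and Myom2 were highest in Aspirin replicate 3. Ttn had 4120.0, 10602 and 11089 in controls, 693, 5916 and 17886 with aspirin and 4724, 15329.7 and 19126 with hydrogel in CPM, a range of 27.6-fold over the 9 libraries. Myom2 had 1116, 2092 and 2137 in controls, 127, 1451 and 2765 with aspirin and 1881, 2335 and 3442 with hydrogel in CPM, a range of 27.2-fold, and Myom1 ranged 18.1-fold. In hydrogel against aspirin these 3 genes had log2 fold changes from 0.68 (Ttn) to 1.06 (Myom1), each with an interval that includes 0. The Myom1 exons share 207 bases with the antisense gene Myl12a (168 CPM on average, against 1578 for Myom1), and reads there cannot be assigned to a strand here.

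The Z-disc role holds 11 members, among them the actin cross-linkers Actn2 and Actn3, the calcineurin-binding Myoz1 and Myoz2, Myot, Ldb3, Tcap and Nrap, the Xin repeat proteins Xirp1 and Xirp2, and filamin C (Flnc). Actn2 (chr13:12269426-12340760, minus strand), the α-actinin of all fibres, had 1362, 977 and 1186 CPM in the controls, 199, 555 and 770.4 in the aspirin libraries and 1203, 882 and 659 in the hydrogel libraries. The aspirin libraries all lay below the controls, and the hydrogel libraries overlapped with both groups. Its log2 fold change was -1.21 ± 0.51 in aspirin against control (unadjusted p = 0.0423, edgeR adjusted p = 0.753) and 0.85 ± 0.51 in hydrogel against aspirin (adjusted p = 0.51, and -0.23 when libraries were scaled to other sarcomere genes).

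Actn3, the α-actinin of fast fibres (chr19:4861216-4877909, minus strand), had 3072, 5698 and 10272 in controls, 659, 6549.6 and 10809 with aspirin and 6146, 8088 and 17282 with hydrogel in CPM, and its log2 fold change in aspirin against control was -0.08 ± 0.92 with overlapping groups. Xirp2 (chr2:67446002-67526614, plus strand) had 141, 197 and 289 in controls, 106, 168 and 392 with aspirin and 227, 533 and 498 with hydrogel in CPM. Hydrogel replicates 2 and 3 were the highest of the 9 libraries, and Hydrogel replicate 1 lay within the control range. Its log2 fold change was 1.00 ± 0.55 in hydrogel against control (edgeR adjusted p = 0.987) and 0.92 ± 0.55 against aspirin (adjusted p = 0.509, and -0.42 with scaling to other sarcomere genes).

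Myot (chr18:44334074-44355724, plus strand), which encodes the actin-bundling myotilin, was the one member whose hydrogel libraries all lay above all aspirin libraries. It had 671, 889 and 1047 CPM in the controls, 176, 709.5 and 726 in the aspirin libraries and 942, 822 and 1168 in the hydrogel libraries. The log2 fold change was 0.86 ± 0.53 (95% interval -0.33 to 2.06, edgeR adjusted p = 0.515), and it was -0.24 with scaling to other sarcomere genes. The controls overlapped with both.

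Myoz2, the slow-fibre partner of Myoz1, had 85.7, 30.3 and 76.1 in controls, 46.8, 42 and 36.1 with aspirin and 80.6, 27.4 and 12.6 with hydrogel in CPM, with Hydrogel replicate 3 lowest. Myoz1 had 797, 1623 and 2214 in controls, 337, 1633 and 2143 with aspirin and 1693, 1795 and 3079 with hydrogel in CPM, with Hydrogel replicate 3 highest. The remaining Z-disc genes Ldb3, Tcap, Nrap, Xirp1 and Flnc had overlapping groups in every comparison. Their log2 fold changes ran from -0.79 (Tcap in aspirin against control) to 0.81 (Nrap in hydrogel against aspirin).

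**Figure D3:**
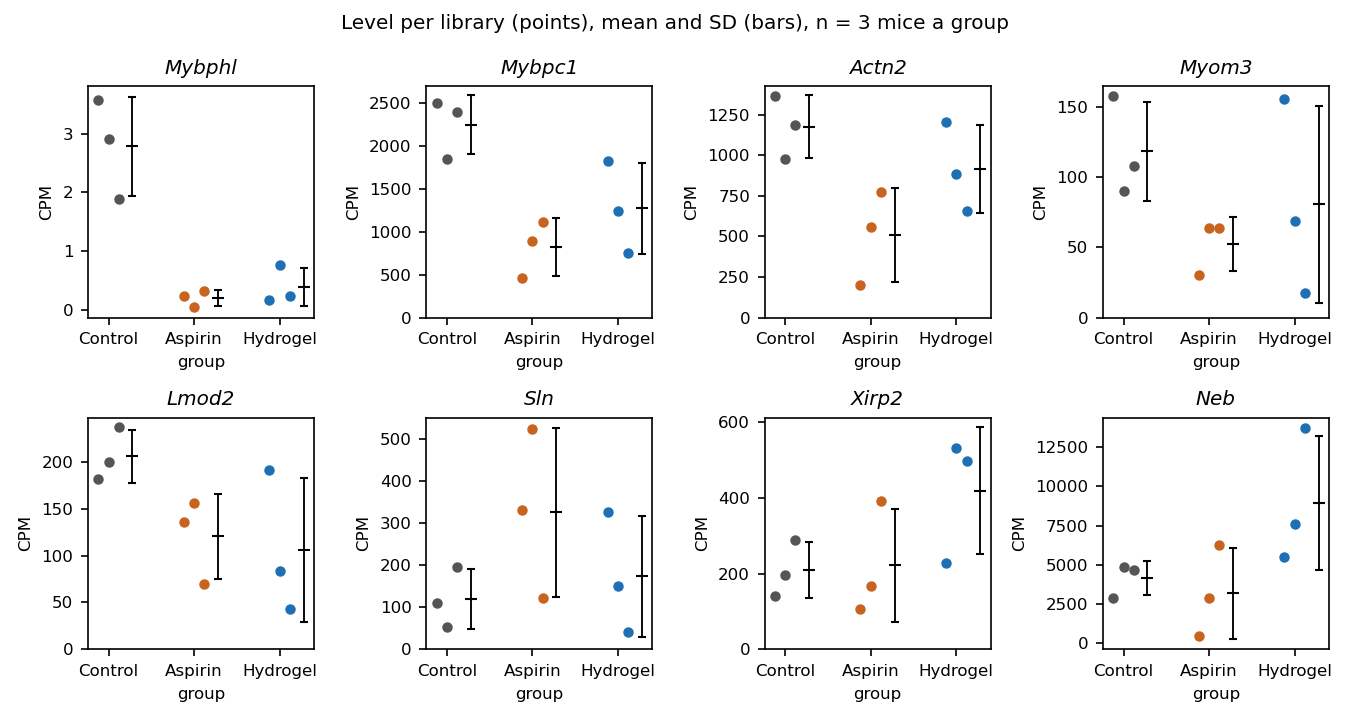
CPM of 8 members in each library (points), with the mean and SD of the 3 libraries of a group (bars), on axes of their own. The Mybphl and Mybpc1 controls lie above all 6 libraries of mice given aspirin, and the Neb hydrogel libraries lie above all controls.

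The triad members are the ryanodine receptor that releases calcium (Ryr1), the voltage sensor subunits Cacna1s, Cacnb1 and Cacng1, the adaptor Stac3, triadin (Trdn), which ties calsequestrin to the release channel, and the junctophilins Jph1 and Jph2, which bridge the membranes. Trdn (chr10:33080554-33476709, plus strand) had 395, 970.4 and 754 CPM in the controls, 154, 603 and 1136 in the aspirin libraries and 1177, 1042 and 1701 in the hydrogel libraries. All hydrogel libraries lay above all controls, and the aspirin libraries overlapped with both. The log2 fold change was 0.89 ± 0.66 in hydrogel against control (edgeR adjusted p = 0.987) and 1.05 ± 0.67 against aspirin (adjusted p = 0.526).

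Ryr1 had 1742, 3392 and 3289.8 in controls, 189, 2117 and 3744 with aspirin and 3047, 3854 and 6959.8 with hydrogel in CPM, a range of 36.8-fold. Jph2 had the widest range of the triad genes at 40.2-fold, from 26 CPM in Aspirin replicate 1 to 1047 in Hydrogel replicate 3. Cacng1 had the narrowest, 5.52-fold, with log2 fold changes of -0.02 ± 0.53, -0.019 ± 0.53 and 0.0011 ± 0.53 in the 3 comparisons. In aspirin against control 8 of 8 triad genes lay below 0 (median -0.48), but 5 of 8 with scaling to other sarcomere genes. In hydrogel against aspirin 8 of 8 lay above 0 (median 0.80), and 6 of 8 with that scaling. 0 of 8 passed the threshold in edgeR, DESeq2 or limma-voom, and 0 reached an unadjusted p under 0.05 in edgeR.

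The store and buffer members are the fast-fibre calcium pump Atp2a1, its small inhibitor sarcolipin (Sln), the storage protein calsequestrin (Casq1) and the cytosolic buffer parvalbumin (Pvalb). Sln (chr9:53850164-53854560, plus strand) had 111, 53.6 and 195 CPM in the controls, 331, 523 and 121 in the aspirin libraries and 327, 151 and 40.8 in the hydrogel libraries. It departed most from the rest of the members. Each gene was centred on its mean log2 CPM over the 9 libraries, and the members' median in each library was subtracted. The value for Sln was 3.36 in Aspirin replicate 1, where 35 of 41 members had their lowest CPM. It was -2.79 in Hydrogel replicate 3, where 25 had their highest CPM. The Sln log2 fold change was 1.44 ± 0.80 in aspirin against control (edgeR adjusted p = 0.761) and -0.91 ± 0.79 in hydrogel against aspirin (adjusted p = 0.617), with overlapping groups in both.

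Atp2a1 (chr7:126445858-126463108, minus strand) had 16495, 29515 and 32965 CPM in the controls, 2133, 20114 and 29285 in the aspirin libraries and 25532, 29936 and 47839 in the hydrogel libraries. Casq1 (chr1:172209894-172219868, minus strand) had 3438, 5374 and 5879 in controls, 623, 3432 and 7013 with aspirin and 5327, 5078 and 5863 with hydrogel in CPM. Both genes were lowest in Aspirin replicate 1, and their groups overlapped in every comparison. With each gene centred on its own mean, Pvalb kept closest to the members' median. Its deviations spanned 0.59 on the log2 scale over the 9 libraries, next to Acta1 (0.60) and Casq1 (0.63). The same span was 6.15 for Sln, 5.95 for Mybphl, 5.33 for Tpm3 and 5.02 for Myoz2. Ckm, the enzyme that regenerates ATP beside the filaments, had 9205, 17727 and 27261 in controls, 3107, 17324 and 26616 with aspirin and 19399, 21364 and 38723 with hydrogel in CPM and log2 fold changes of -0.20 ± 0.81, 0.55 ± 0.81 and 0.76 ± 0.81 in the 3 comparisons.

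The structural and the calcium handling classes were set beside each other in every comparison. Their median log2 fold changes were -0.44 and -0.44 in aspirin against control, 0.21 and 0.30 in hydrogel against control, and 0.68 and 0.74 in hydrogel against aspirin. Structural minus calcium handling thus came to 0.00081, -0.097 and -0.066. No test was made of a class. With scaling to other sarcomere genes the medians in hydrogel against aspirin were -0.31 and 0.10, so that the signs of the classes parted there. In aspirin against control 5 of 28 structural members (17.9%) and 0 of 12 calcium handling members lay lower without overlap, beside 5.44% of all genes. The difference between the classes in this count was not tested.

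Within single libraries the classes parted in 1 of 9. The median level of the structural class minus that of the calcium handling class, each gene centred on its own mean, was 0.018, -0.14 and 0.071 in the controls, 0.72, 0.13 and -0.12 in the aspirin libraries and -0.10, -0.13 and -0.14 in the hydrogel libraries. Aspirin replicate 1 stood apart: the calcium handling median was -2.79 there and the structural median -2.08. By role, titin and the M-band (-3.19) and the triad (-2.92) were lowest in that library and the thick filament (-1.63) the least low. In the fits the difference of the classes in aspirin against control ranged from -0.11 without Aspirin replicate 1 to 0.26 without Aspirin replicate 3.

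**Figure D4:**
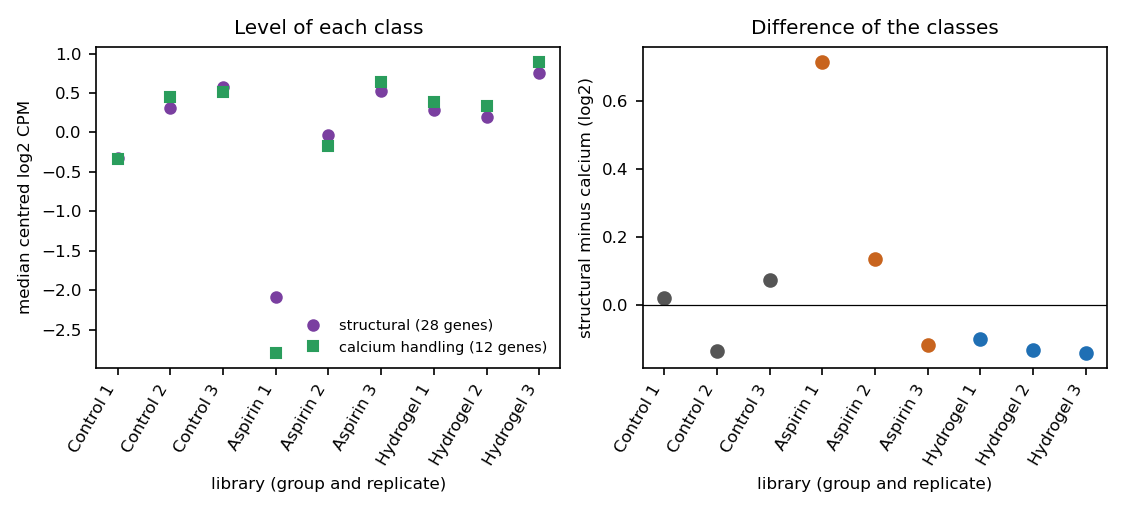
Left, median log2 CPM of the 28 structural and 12 calcium handling members in each library, each gene centred on its mean over the 9 libraries. Right, structural minus calcium handling for the same libraries; 8 libraries lie between -0.14 and 0.13 and Aspirin replicate 1 lies at 0.72.

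Members of fast fibres were then divided by their partners in each library, because such a ratio does not depend on how libraries are scaled. 7 pairs were formed, and the partners Atp2a2 (the slow-fibre calcium pump) and Casq2 (the slow-fibre and cardiac calsequestrin) are not members. The ratios printed are of deposited FPKM. Differences between groups are of log2 count ratios, each tested by a two-sided exact permutation test whose smallest possible p is 0.1 with 3 libraries against 3. Because of that limit a p of 0.05 cannot be reached here.

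The Tpm1 to Tpm3 ratio was 39.1, 105 and 127 in the controls, 13.6, 131 and 213 in the aspirin libraries and 154, 166 and 738 in the hydrogel libraries. The hydrogel libraries all lay above the controls, the one case without overlap among 21 comparisons (difference 1.72, pooled SD 1.11, exact permutation p = 0.1, and 0.741 after Benjamini-Hochberg adjustment over the 21). Aspirin libraries overlapped with both, at -0.15 against control. Since Tpm3 counts do not separate the products of the gene, whether this ratio follows fibre type was not tested. In the other comparisons the exact permutation p ran from 0.2 to 1.

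The Mybpc2 to Mybpc1 ratio was 1.43, 3.86 and 4.42 in the controls, 0.949, 8.01 and 9.71 in the aspirin libraries and 3.5, 7.28 and 23 in the hydrogel libraries. Aspirin replicate 1 was the one library with more of the slow than of the fast form. The Actn3 to Actn2 ratio was 2.95, 7.63 and 11.3 in the controls, 4.33, 15.4 and 18.4 in the aspirin libraries and 6.68, 12 and 34.3 in the hydrogel libraries, with Control replicate 1 lowest.

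The Myoz1 to Myoz2 ratio was 16.8, 97.1 and 52.7 in the controls, 13, 70.5 and 108 in the aspirin libraries and 38, 119 and 444 in the hydrogel libraries. The Myom2 to Myom3 ratio was 4.84, 15.9 and 13.6 in the controls, 2.84, 15.6 and 29.6 in the aspirin libraries and 8.26, 23.3 and 137 in the hydrogel libraries. Both spread more within the hydrogel group than between group medians.

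The Atp2a1 to Atp2a2 ratio was 139, 474 and 296 in the controls, 33.6, 212 and 382 in the aspirin libraries and 202, 356 and 1085 in the hydrogel libraries. Atp2a2 itself had 208, 109 and 195 in controls, 111, 166 and 134 with aspirin and 221, 147 and 77.3 with hydrogel in CPM. The Casq1 to Casq2 ratio was 35.1, 107 and 65.5 in the controls, 23.4, 57.5 and 65.9 in the aspirin libraries and 61.2, 129.6 and 174 in the hydrogel libraries, and Casq2 had 138, 70.7 and 126 in controls, 37.3, 83.9 and 149 with aspirin and 122, 55.1 and 47.5 with hydrogel in CPM. Groups overlapped for both calcium handling pairs. The largest differences were in hydrogel against aspirin, 1.62 for the pump pair (pooled SD 1.56, exact permutation p = 0.5) and 1.32 for the calsequestrin pair (pooled SD 0.79, exact permutation p = 0.2).

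The same libraries lay at the ends of most pairs. Hydrogel replicate 3 was highest in 7 of 7, and Aspirin replicate 1 lowest in 6 of 7. Control replicate 1, Aspirin replicate 1 and Hydrogel replicate 1 were each the lowest of their group in 7 of 7 pairs. The range over 9 libraries went from 7.41-fold (Casq1 to Casq2) to 54.3-fold (Tpm1 to Tpm3), and without Aspirin replicate 1 and Hydrogel replicate 3 from 3.41-fold to 7.07-fold. Among the 3 controls alone, the Myoz1 to Myoz2 ratio spanned 5.77-fold. The pairs share the same 9 libraries and are not independent measurements.

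**Figure D5:**
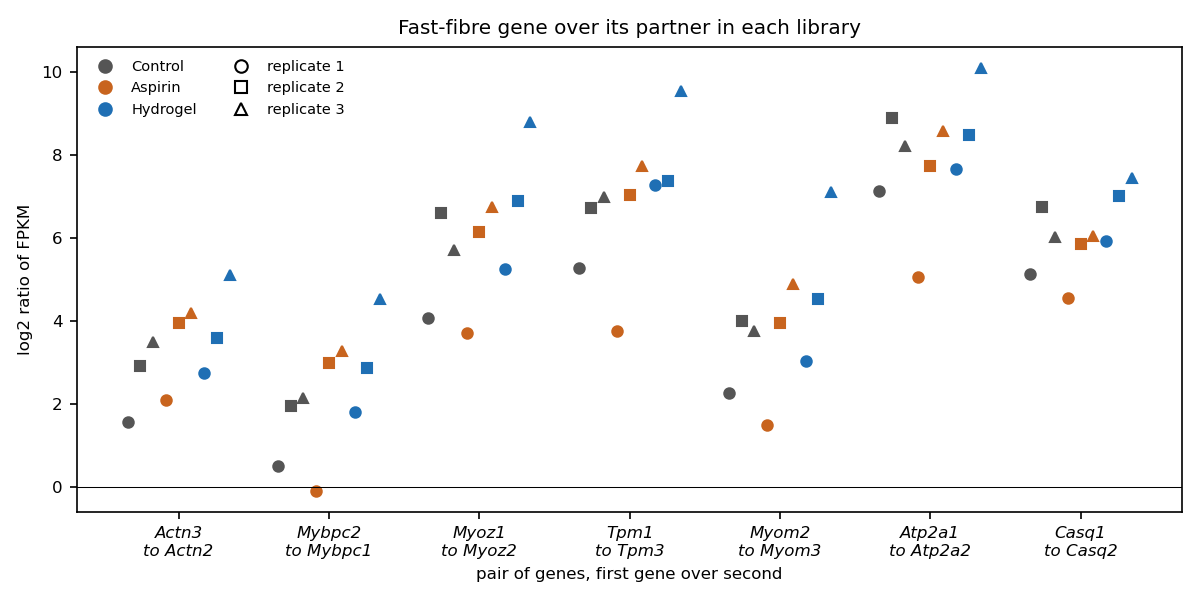
log2 ratio of deposited FPKM of a fast-fibre gene to its partner for 7 pairs, with 1 point for each of the 9 libraries (colour for group, shape for replicate). Hydrogel replicate 3 is the highest point in 7 of 7 pairs and Aspirin replicate 1 the lowest in 6 of 7.

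Other genes of the sarcomere (36 listed, 35 tested, troponins and myosins among them) were scored for context. 0 of 35 passed the threshold in edgeR in any comparison. Their median log2 fold changes were -0.28, 0.28 and 0.62, beside -0.41, 0.26 and 0.68 for the members. Without overlap, 4 of 35 were lower in aspirin against control (11.4%, beside 5.44% of all genes) and 0 higher (beside 5.54%). In hydrogel against control 3 were higher (8.57%, beside 6.85%) and 2 lower (5.71%, beside 6.3%). In hydrogel against aspirin 4 were higher (11.4%, beside 7.46%) and 1 lower (2.86%, beside 8.75%). The stretch-responsive ankyrin repeat gene Ankrd2 had 42.9, 31.3 and 32.5 CPM in the controls, 27, 21.1 and 12.3 in the aspirin libraries and 41.1, 30.3 and 37.6 in the hydrogel libraries. All aspirin libraries lay below all other libraries (-0.82 ± 0.30 against control, edgeR adjusted p = 0.753, and 0.85 ± 0.30 for hydrogel against aspirin, adjusted p = 0.453).

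The LIM domain gene Fhl1 had 745, 677 and 606 CPM in the controls, 263, 407 and 199.9 in the aspirin libraries and 561, 239 and 207 in the hydrogel libraries. Both groups given aspirin lay below the controls, with log2 fold changes of -1.22 ± 0.46 and -1.01 ± 0.46 (edgeR adjusted p = 0.753 and 0.987). Ankrd1, a relative of Ankrd2, had -1.04 ± 0.55 in hydrogel against control, and the Z-disc gene Pdlim5 0.78 ± 0.33 in hydrogel against aspirin, both with overlapping groups.

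Other genes of excitation and calcium handling (28, all tested) gave 0 calls in edgeR and medians of -0.29, 0.24 and 0.40. Without overlap, 1 of 28 was higher and 1 lower in aspirin against control (3.57% each, beside 5.54% and 5.44% of all genes). In hydrogel against control 2 were higher (7.14%, beside 6.85%) and 0 lower (beside 6.3%). In hydrogel against aspirin 2 were higher (7.14%, beside 7.46%) and 0 lower (beside 8.75%). Stim1, the sensor that opens calcium entry when the store is empty, had 168, 166 and 208 CPM in the controls, 32.5, 119 and 152 in the aspirin libraries and 199, 194 and 254 in the hydrogel libraries. The aspirin libraries lay below all others (-0.84 ± 0.48 against control, edgeR adjusted p = 0.765, and 1.09 ± 0.48 in hydrogel against aspirin, adjusted p = 0.454). Fkbp1a, which stabilises the closed ryanodine receptor, was higher without overlap in aspirin against control (0.64 ± 0.33, adjusted p = 0.754). The scaffold gene Homer1 was higher without overlap in hydrogel against control (0.98 ± 0.57, adjusted p = 0.987). The potassium channel gene Kcnj12 had 1.20 ± 0.76 in hydrogel against aspirin, with overlapping groups.

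Markers of other cells also differed between libraries, with 0 called by edgeR. 10 of 10 macrophage markers lay above 0 in aspirin against control (median log2 fold change 1.01), beside 54.0% of all genes. Of these markers 1 of 10 was higher without overlap, beside 5.54% of all genes. In hydrogel against aspirin 10 of 10 lay below 0 (-1.01), beside 53.3% of all genes. There 2 of 10 were lower without overlap, beside 8.75% of all genes. The signs held under each of the 4 scalings. The other scalings moved the median of all genes the same way, up to 1.48 and down to -2.02, so they could not check these signs. The summed macrophage level was 696 to 1754 CPM in the controls, 1396 to 3065 in the aspirin libraries and 633 to 1388 in the hydrogel libraries, highest in Aspirin replicate 1. The summed neutrophil markers (10 listed, 9 tested) were 25.1 to 173, 32.4 to 435 and 10.8 to 38.3 CPM in the same order, also with Aspirin replicate 1 highest and Hydrogel replicate 3 lowest. In hydrogel against aspirin 9 of 9 neutrophil markers lay below 0, and 3 of 9 were lower without overlap, beside 8.75% of all genes.

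Fibroblast markers summed to 7707 to 12894, 7359 to 13191 and 5387 to 8276 CPM. In hydrogel against aspirin 10 of 10 lay below 0, and 3 of 10 were lower without overlap, beside 8.75% of all genes. The signs held under each scaling, but the other scalings moved the median of all genes lower too, so they could not check these signs. Tendon markers lay below 0 in that comparison for 8 of 8 genes (median -1.21), 6 of them without overlap, beside 8.75% of all genes. Endothelial markers summed to 407 to 721, 245 to 331 and 326 to 519.7 CPM, and adipocyte markers to 3271 to 5867, 1111 to 2898 and 1427 to 4472 CPM. In aspirin against control 10 of 10 of each lay below 0, but 2 and 5 of 10 with scaling to other sarcomere genes. With TMM scaling 6 of 10 endothelial and 6 of 10 adipocyte markers lay lower without overlap there, beside 5.44% of all genes. Satellite cell and regenerating fibre markers summed to 236 to 956, 288 to 668 and 157 to 639 CPM. Red cell markers summed to 345 to 6195, 428 to 4321 and 398 to 756 CPM. Their fold changes in hydrogel against control lay below 0 for 6 of 6 genes (median -2.28), but 0 of 6 were without overlap, and the sum in Control replicate 2 lay below those of the 3 hydrogel libraries. No marker of any list was at 0 in all 9 libraries, and the part of these cells in the members' values was not tested.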

How the data were processed

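Libraries of leg muscle RNA were prepared with the SMARTER kit named in the labels. The authors deposited whole-number counts per Ensembl gene, not normalised, and FPKM values (scaled by gene length and library size) for the same genes. The submitters' processing notes name mm10 as the build. The aligner, counter, annotation and strand setting were not given in the sources used here. Over 10432 genes whose counts were all 100 or more, 99.3% of library-scaled count to FPKM ratios lay within 1% of 1 constant per gene. Coordinates are from GENCODE on mm10, 1-based. Of 41 members, 15 share exonic bases with another gene.

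The members, lists and tests were chosen with earlier results of these data known. edgeR's quasi-likelihood test (version 4.0.16, R 4.3.3, robust fit) was applied to the deposited counts, with a single fit to the 9 libraries, group as its term, TMM scaling and filterByExpr (minimum count 10, total 15). Adjustment (Benjamini-Hochberg) ran over all 18259 genes with a threshold of 0.05. The common biological coefficient of variation was 0.503. The lowest chi-square per degree of freedom between replicates was 77.8, and each library counts as 1 sample. The edgeR p-values weigh a group difference against the spread between these mice, which is estimated for each gene with information shared over all genes tested. DESeq2 (1.42.0), limma-voom (limma 3.58.1), limma-trend on log2(FPKM + 1) and log2(FPKM + 0.1), other scalings and filters, fits of 2 groups, a replicate block and leaving out each library were the alternatives. The edgeR step was tested on simulated data.

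Members given with values in every library were the 5 of smallest unadjusted p and the 3 farthest from the members' median in each comparison, and both genes of each pair. Other members were named to describe the extremes of a role, after their values were seen. From each list of other muscle genes, the 2 of smallest p in each comparison were named, except 1 gene that is not reported here. Motifs were searched on both strands.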

Additional observations from a re-analysis of the deposited data

How the results depend on the processing

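DESeq2 called 101 genes in aspirin against control (1 of them a member, Mybphl, log2 fold change -3.83), 18 in hydrogel against control and 157 in hydrogel against aspirin, and the cause was not tested. The fits that left out 1 library were made with edgeR, not with DESeq2. In hydrogel against aspirin edgeR called 0 genes in the main fit and 0 to 2 in these fits (2 without Aspirin replicate 3). In the other comparisons edgeR called 0 genes in every such fit.

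Structural minus calcium handling in aspirin against control ranged from -0.11 to 0.26 over the fits that left out 1 library, and it was -0.41 in hydrogel against aspirin with scaling to other sarcomere genes. That scaling turned Actn2 (-0.23), Myot (-0.24) and Xirp2 (-0.42) in hydrogel against aspirin. Lmod2 in that comparison ranged from -0.92 to 0.16 when 1 library was left out and Tpm3 from -0.90 to -0.32, and without both Aspirin replicate 1 and Hydrogel replicate 3 it was 0.29 and Tpm3 0.0049. The median of all genes was 0.27, -0.25 and -0.51 in the 3 comparisons with library size alone and 1.48, -0.55 and -2.02 with scaling to other sarcomere genes. Of the other values, 370 for single members kept their direction and side of the threshold. Another 412, for counts, medians, class differences and pairs, were counted as unmoved. A median, class difference or pair was counted so if it moved by less than the spread within groups, even where its sign turned. The members' median in hydrogel against aspirin is an example, at 0.68 in the main fit and -0.23 with scaling to other sarcomere genes. The 412 therefore do not show that the medians kept their direction.

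Same-numbered libraries deviated together (correlation over 0.1) in 7 of 9 pairs, with a range from -0.44 to 0.62, and 5 of 9 libraries correlated best with their own number, so the numbers were not taken as pairs. With a replicate block, edgeR called 1 gene, not a member, in hydrogel against aspirin and 0 in both other comparisons, and the members' medians were -0.77, 0.34 and 1.03. The SE of the members' log2 fold changes ran from 0.43 to 1.01 in aspirin against control, which limits the differences these 3 libraries a group can show.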
